A study of Homo sapiens with 6 samples.

Results

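The enzymes described here make or interconvert asparagine, arginine, glutamine, glutamate, aspartate and proline. They are ASNS, ASS1, ASL, GLUL, GLUD1, GOT1, GOT2, ALDH18A1 and PYCR1. Every Affymetrix HG-U133A probe set annotated to exactly 1 of these 9 genes was taken, which gave 12 of the 22283 probe sets on the array. A probe set is a group of short oligonucleotides that together report on a transcript. GLUL had 3 probe sets, GLUD1 had 2, and each of the others had 1.

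The cells were HL60, an established human promyelocytic leukemia cell line that matures toward granulocytes when given retinoids. Cells of the tretinoin group received 1 μM tretinoin (all-trans retinoic acid, a ligand of the retinoic acid receptors) for 5 days, in dimethyl sulfoxide (DMSO) at a final concentration of 0.1%. Cells of the DMSO group received the same 0.1% DMSO alone for 5 days, so the solvent was common to both groups. Each group had 3 arrays, and the paper describes these as parallel hybridizations of 1 pooled, labeled product per group. The spread between arrays is therefore a spread between hybridizations, not between cultures, and so few arrays limit the precision of every value below.

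These 9 enzymes feed protein synthesis in dividing cells and also supply nitrogen and carbon to other pathways. Aspartate stands at the center: the aspartate transaminases make it, ASNS turns it into asparagine with an amide group from glutamine, and ASS1 and ASL pass its nitrogen into arginine. Glutamate gives rise to glutamine through GLUL, to 2-oxoglutarate through GLUD1, and to proline through ALDH18A1 and PYCR1. Cells short of an amino acid are known to raise transcription of ASNS through the transcription factor ATF4, which binds a composite element in the ASNS promoter.

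The stretch of promoter that carries this element is shown here for ASNS, the enzyme with the lowest ratio of tretinoin to DMSO signal among the 9, together with stretches of other members that hold a match to one of its motifs (GOT1 and the upstream start site of ASS1) or to the E-box described below (the second start site of ASS1, and ALDH18A1). Sequences are RefSeq promoter windows of assembly GRCh38.p14, each holding 250 bases before and 50 bases after an annotated start site, read 5′ to 3′ on the strand of the gene, and capitals mark the matched motif. Positions count back from the start site, so that -1 is the base just before it.
ASNS, chr7:97872434-97872493, minus strand, -85 to -26: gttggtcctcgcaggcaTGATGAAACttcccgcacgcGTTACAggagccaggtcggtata
GOT1, chr10:99430789-99430848, minus strand, -224 to -165: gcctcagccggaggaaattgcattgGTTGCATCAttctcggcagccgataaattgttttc
ASS1, chr9:130444609-130444638, plus strand, -98 to -69: ctccgcccctgaGTTACAtgggtcgcagcc
ASS1, second start site, chr9:130444878-130444907, plus strand, -83 to -54: gcgcgtccccgcCACGTGtccccggtcacc
ALDH18A1, chr10:95656815-95656874, minus strand, -163 to -104: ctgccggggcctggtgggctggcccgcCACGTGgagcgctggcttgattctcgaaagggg

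In ASNS, a match to TGATGNAAN, the C/EBP-ATF response element (N is any base), lay at -68 to -60, and GTTACA, known as the second nutrient-sensing element of this promoter, lay at -48 to -43. GOT1 held a match to TGATGNAAN on the opposite strand at -199 to -191, whose outermost base it shares with an ATTGG, the CCAAT box on the opposite strand. On both strands, TGATGNAAN was found in 3.61% of all 35116 promoter windows of this length and GTTACA in 6.66%. GTTACA was also found at -86 to -81 of the upstream ASS1 start site. The E-box CACGTG, a site bound by MYC and related factors, was found at -71 to -66 of the second ASS1 start site and at -136 to -131 in ALDH18A1, and in 7.26% of all windows. The GC box GGGCGG occurred in 10 of the 11 member windows, from 7 of the 8 member genes that had a window, and in 45.0% of all windows. CCAAT occurred in 3 of the 11 member windows (1 each of ASL, GOT1 and GLUL) and in 34.6% of all windows. The 8 genes had 11 windows between them, and PYCR1 had none. Apart from the 1 shared base in GOT1, no matches of different motifs overlapped in the member windows. The matches describe these letters only, and binding was not measured.

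Signals were linear MAS5 intensities, brought to equal mean signal per array, with values under 20 set to 20 for means and folds. Values given for single arrays are the scaled signals before that floor. Scaling factors lay between 0.939 and 1.36 on the tretinoin arrays and between 0.820 and 1.03 on the DMSO arrays, and 54.9% to 60.1% of probe sets exceeded 20 on each array. The correlation of log2 signals across tested probe sets, which are not independent replicates, was 0.957 to 0.975 within groups and 0.850 to 0.862 between groups. The promyelocytic label of the cells was checked against 8 markers: all 7 with a probe set, MPO and ELANE among them, exceeded 20 on every DMSO array, and 4 did so on every tretinoin array. The summed signal of these markers, most of which came from MPO and MYB in DMSO, was 540.1 to 546 in tretinoin and 4259 to 4835 in DMSO. SPI1, a transcription factor on the same list, ran the other way, with 203 to 263 in tretinoin and 104 to 137 in DMSO. The 4 markers of granulocytic maturation, NCF1 and CYBB among them, summed to 2671 to 3243 in tretinoin and to 426 to 471 in DMSO. Lymphoid, erythroid and epithelial or fibroblast markers (4 of 5, 2 of 4 and 4 of 4 with a probe set) overlapped in sum between the groups. They summed to 73.2 to 145, 55.1 to 82.1 and 122 to 163 in tretinoin, and to 99.0 to 139, 52.4 to 69.3 and 123 to 183 in DMSO. Among them, EPCAM, COL1A2 and ALAS2 were above 20 on no array. COL1A1, KRT18, HBB and CD3E exceeded 20 on all 6 arrays, MS4A1 on 5, and CD3D and CD79A on 2. The 3′ to 5′ ratio of the ACTB control, which reflects RNA integrity and labeling, was 1.14 to 1.17 in tretinoin and 1.38 to 1.42 in DMSO, while that of GAPDH was 1.15 to 1.19 in tretinoin and 1.06 to 1.17 in DMSO. The part of the ACTB difference in the results below was not tested.

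Tretinoin and DMSO were compared by limma over the 13374 probe sets with a signal above 20 on 3 or more arrays. A call required both an adjusted p under 0.05 and a 1.5-fold or larger difference in the fit. All 12 member probe sets were tested. The 9 genes were chosen by function and with their tretinoin to DMSO ratios on these same arrays already known, the low ratios of ASNS and ASS1 above all, so their values are given as a description, with no p-value. Of the 12 probe sets, 8 were called lower in tretinoin, none was called higher and 4 were not called. Across the array, 13.8% of tested probe sets were called lower and 13.6% higher by this rule (1850 lower and 1824 higher, or 2312 lower and 1142 higher without scaling). The arrays of the groups did not overlap for 9 of the 12 probe sets, all lower in tretinoin, against a background of 24.3% of tested probe sets whose arrays lay apart in that direction. The median log2 fold change was -1.28 over the 12 probe sets and -0.03 over all tested probe sets. Nothing about the members is read from these counts, because the choice of genes already used them.

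**Figure D1:**
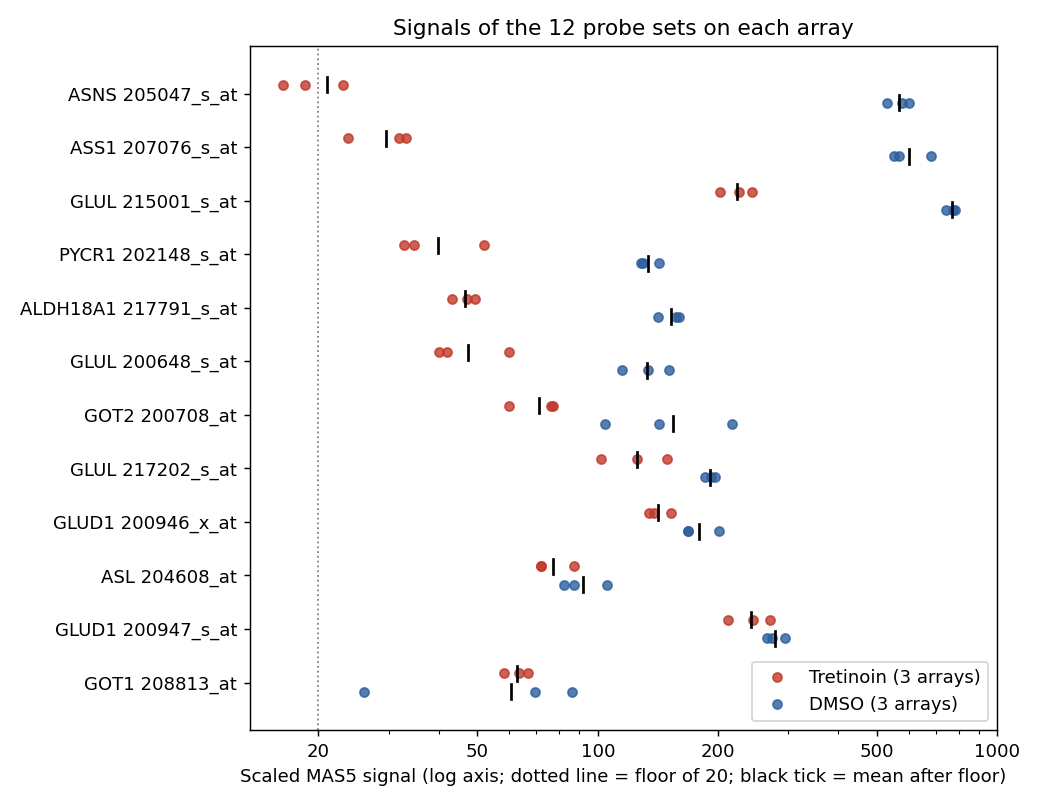
Scaled MAS5 signal (log axis) of each of the 12 probe sets on the 3 tretinoin arrays (red, upper row of each pair) and the 3 DMSO arrays (blue, lower row), with black ticks at the group means after the floor and a dotted line at the floor of 20. The groups lie far apart for ASNS and ASS1 and overlap for ASL, GOT1 and the GLUD1 probe set 200947_s_at.

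Asparagine synthetase, ASNS, makes asparagine from aspartate with glutamine as the amide donor. On its probe set, 205047_s_at, the signal was 16.3, 18.5 and 23.1 on the 3 tretinoin arrays, against 529, 576 and 599.6 on the 3 DMSO arrays. All tretinoin arrays lay near the floor and only 1 of them exceeded it, while the DMSO arrays were high and close together. With values under 20 set to 20, the mean was 21.0 ± 1.78 in tretinoin and 568 ± 35.9 in DMSO (SD, n = 3 arrays each), a difference of at least 27.0-fold. The fitted log2 fold change of -4.76 (SE 0.129) was the lowest of all tested probe sets. In RNA from bulk cultures, fewer cells with the transcript and less transcript per cell cannot be told apart, here and for the other enzymes. Since the log2 fold change of ASNS is set by the floor, it was -4.89 with a floor of 10 and -3.83 with a floor of 40. With a floor of 40, every tretinoin array of both ASNS and ASS1 lay under the floor. ASS1 was then lower than ASNS, at -3.90, an order set by the DMSO signals alone. With a floor of 10, ASS1 stayed at -4.35 and ASNS was the lower. The rank of ASNS among all tested probe sets is given for the floor of 20 only.

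Argininosuccinate synthase, ASS1, joins citrulline to aspartate in the rate-limiting step of arginine synthesis, and argininosuccinate lyase, ASL, splits the product into arginine and fumarate. ASS1 (207076_s_at) had signals of 31.8, 33.1 and 23.7 in tretinoin, against 568, 549.8 and 680.2 in DMSO. Unlike ASNS, ASS1 exceeded 20 on every array, so its fold was not set by the floor of 20. Its tretinoin signals still lay close to that floor, and detection calls were not used. The log2 fold change was -3.90 with a floor of 40 and -3.76 with an offset of 16 and no floor. In the main setting the mean of ASS1 was 29.5 ± 5.13 in tretinoin and 599 ± 70.6 in DMSO, or 20.3-fold lower in tretinoin, with a log2 fold change of -4.35 (SE 0.176). Only 2 of the tested probe sets had a lower log2 fold change.

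The next enzyme of the same route stood apart from it. ASL (204608_at) had signals of 72.0, 87.4 and 72.3 in tretinoin, against 87.2, 82.5 and 106 in DMSO. The groups overlapped, since the highest tretinoin array lay above the middle DMSO array. The means were 77.2 ± 8.83 in tretinoin and 91.8 ± 12.3 in DMSO, a log2 fold change of -0.25 (SE 0.155), and ASL was not called. The pair thus contributed a very large and a small difference to a route of 2 successive steps.

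Genes whose pattern over the 6 arrays was most like that of ASS1 were sought among 8152 other genes, by the root mean square difference of log2 signals centered on their own mean. The nearest were MYC, a transcription factor of growth and proliferation (0.213), MPO, the myeloperoxidase of azurophil granules (0.318), and S100P, a calcium-binding protein (0.382). MYC had a mean signal of 167 ± 5.33 in tretinoin and 2727 ± 321 in DMSO, MPO had 129 ± 22.8 in tretinoin and 3093 ± 241 in DMSO, and S100P had 68.8 ± 18.1 in tretinoin and 1262 ± 47.8 in DMSO. With 2 groups, this measure mostly finds genes with a difference of similar size.

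Glutamine synthetase, GLUL, joins ammonia to glutamate to form glutamine, and glutamate dehydrogenase, GLUD1, works in mitochondria to convert glutamate to 2-oxoglutarate and ammonia. On the brightest GLUL probe set, 215001_s_at, the signal was 243, 202 and 226 in tretinoin, against 774, 745 and 783 in DMSO. The arrays within each group were close, and the groups did not overlap. The mean was 224 ± 20.7 in tretinoin and 768 ± 19.9 in DMSO, 3.43-fold lower in tretinoin (log2 fold change -1.78, SE 0.127). A second GLUL probe set, 200648_s_at, had 39.996, 42.0 and 59.9 in tretinoin and 133.2, 115 and 151 in DMSO, a 2.81-fold lower mean in tretinoin. The third, 217202_s_at, had 125, 102 and 149 in tretinoin and 192, 186 and 196 in DMSO, a 1.53-fold lower mean in tretinoin (log2 fold change -0.63, SE 0.165).

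The 3 GLUL probe sets therefore had the same direction on non-overlapping arrays and differed in size. The smallest difference, on 217202_s_at, lay just past the 1.5-fold minimum, and its call was lost in 10 of 19 alternative settings. Among these were the omission of tretinoin replicate 1 or 2 or of any 1 DMSO array. The lowest and highest log2 fold changes upon leaving out 1 array were -0.76 and -0.48. All 3 names end in _s_at, which marks probe sets whose oligonucleotides match more than 1 transcript, and GLUL has processed pseudogenes, so the share of each transcript in these signals is uncertain.

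GLUD1 differed less. Probe set 200947_s_at had 212, 269 and 245 in tretinoin and 265.5, 294 and 274 in DMSO, with means of 242 ± 28.8 in tretinoin and 278 ± 14.7 in DMSO, and the highest tretinoin array lay above the lowest DMSO array. Probe set 200946_x_at had 134, 152 and 139 in tretinoin and 168.5, 168 and 201 in DMSO, with means of 142 ± 9.25 in tretinoin and 179 ± 18.8 in DMSO, and its arrays did not overlap. The log2 fold changes were -0.20 (SE 0.139) and -0.33 (SE 0.135), and neither was called. The suffix _x_at marks probe sets with oligonucleotides that can bind unrelated sequences, and GLUD1 has a nearly identical retrocopy, GLUD2, from which its signal may not be told apart.

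The aspartate transaminases interconvert glutamate and aspartate, with GOT1 in the cytosol and GOT2 in mitochondria, and both take part in the malate-aspartate shuttle. GOT2 (200708_at) had 76.5, 59.9 and 77.3 in tretinoin, against 142, 104 and 216 in DMSO. The groups did not overlap, but the DMSO arrays were spread more than 2-fold. The mean was 71.2 ± 9.85 in tretinoin and 154 ± 56.9 in DMSO, 2.17-fold lower in tretinoin (log2 fold change -1.06, SE 0.272). The call was lost when any 1 tretinoin array or DMSO replicate 1 was left out, with log2 fold changes of -1.12, -0.94 and -1.12 without tretinoin replicates 1 to 3 and -1.09 without DMSO replicate 1. It was kept at -0.78 without DMSO replicate 3 and at -1.31 without DMSO replicate 2.

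GOT1 (208813_at) had 63.5, 66.8 and 58.3 in tretinoin, against 86.4, 69.7 and 26.0 in DMSO. The tretinoin arrays lay between the DMSO arrays, of which replicate 3 was low and the others high. The mean was 62.9 ± 4.30 in tretinoin and 60.7 ± 31.2 in DMSO, a ratio of 1.04 with a log2 fold change of 0.22 (SE 0.421). Without DMSO replicate 3 the sign turned, to -0.31. No direction can be given for GOT1 from these arrays. Its promoter letters are shown above beside those of ASNS, and whether they act in these cells was not tested.

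Proline is made from glutamate in a first step by ALDH18A1, the bifunctional pyrroline-5-carboxylate synthase, and in a last step by PYCR1, a mitochondrial pyrroline-5-carboxylate reductase. ALDH18A1 (217791_s_at) had 43.1, 47.1 and 49.4 in tretinoin, against 159.7, 142 and 157 in DMSO. The mean was 46.5 ± 3.17 in tretinoin and 153 ± 9.72 in DMSO, 3.28-fold lower in tretinoin (log2 fold change -1.71, SE 0.126). Both groups were tight and did not overlap.

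PYCR1 (202148_s_at) had 32.7, 52.0 and 34.7 in tretinoin, against 128, 130.1 and 143 in DMSO. Tretinoin replicate 2 was higher than the other tretinoin arrays and still well below every DMSO array. The mean was 39.8 ± 10.6 in tretinoin and 134 ± 7.77 in DMSO, 3.36-fold lower in tretinoin (log2 fold change -1.78, SE 0.197), and the log2 fold change was -1.99 without tretinoin replicate 2. The enzymes at the start and the end of proline synthesis thus had signals of about the same proportion of DMSO, 30.5% for ALDH18A1 and 29.8% for PYCR1.

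**Figure D2:**
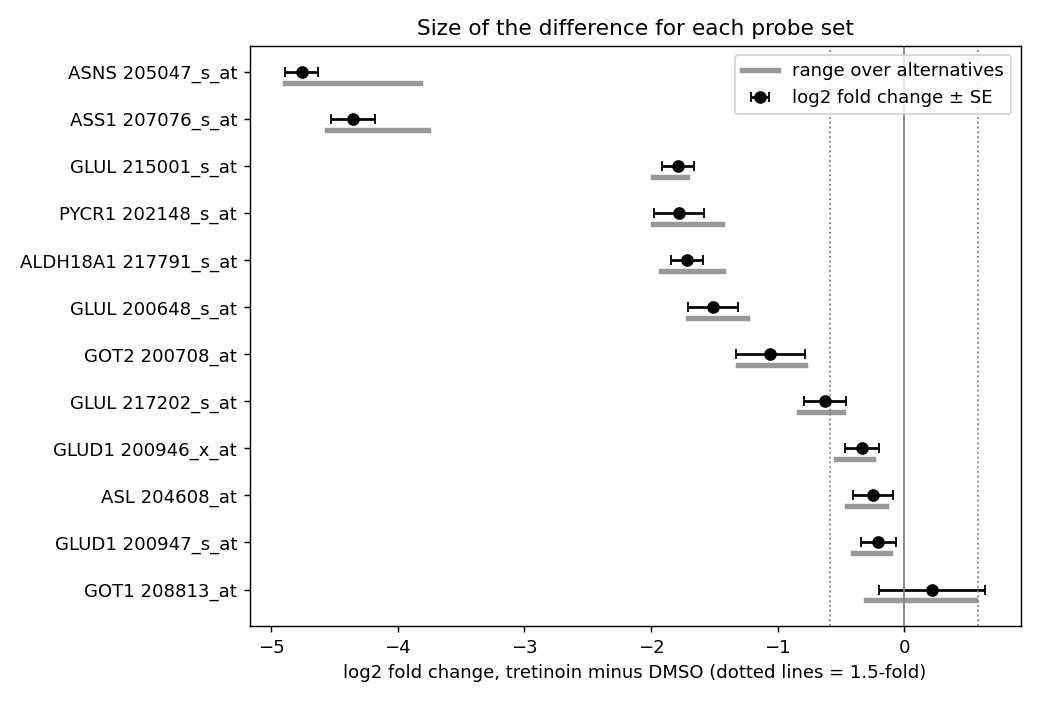
Fitted log2 fold change (tretinoin minus DMSO) of each member probe set with its SE (black points and bars, n = 3 arrays per group), and the range of the value over 14 alternative settings and the value as reported (gray bars), with dotted lines at 1.5-fold. ASNS and ASS1 stay within -4.89 to -3.83 and -4.56 to -3.76, and only the range of GOT1 crosses 0.

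**Figure D3:**
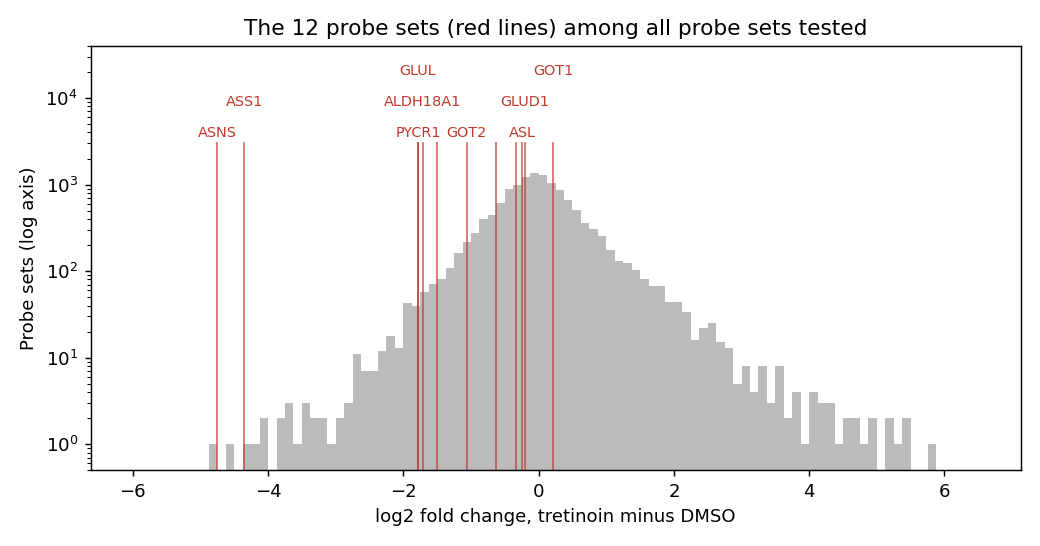
Number of tested probe sets (log axis) in each interval of log2 fold change (tretinoin minus DMSO), with red lines at the 12 member probe sets and gene names at the brightest probe set of each gene. ASNS at -4.76 and ASS1 at -4.35 lie at the far left of the distribution, and ASL, GLUD1 and GOT1 lie within its central mass.

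Other genes of the same pathways were listed by function, with results of these arrays already known. The adjusted p-values printed for them are therefore a description, not support for a theme. They weigh a difference against the spread between hybridizations, not between cultures. Of 71 listed genes, 58 had a probe set annotated to that gene alone, and the brightest of these stood for the gene. After the filter on low signal 48 were tested, of which 19 were lower in tretinoin, 4 were higher and 25 were not called. Of the 19, SLC25A15, BCAT1 and CHAC1, named for this reason, exceeded 20 on DMSO arrays only. These 3 passed the filter through the group where they were high, so their calls carry no weight, and 16 lower genes had some tretinoin array above 20. Across all 8161 genes tested in this way, 14.3% were lower and 13.5% higher. The median log2 fold change of the 48 was -0.28, against -0.04 for all tested genes.

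Of 4 tested genes in the list of asparagine and aspartate metabolism, 3 were lower and 1 was higher. CAD, which starts pyrimidine synthesis and consumes aspartate, fell 4.26-fold, to 36.0 ± 18.2 in tretinoin against 153 ± 15.4 in DMSO (SD, n = 3 arrays each; limma, adjusted p = 0.00245). ADSL, adenylosuccinate lyase of purine synthesis, fell 2.70-fold, with 271 ± 6.43 in tretinoin and 731 ± 78.6 in DMSO (limma, adjusted p = 0.000290). ASRGL1, an asparaginase that releases aspartate and so runs opposite to ASNS, rose 3.93-fold, with 418 ± 20.2 in tretinoin and 106 ± 15.1 in DMSO (limma, adjusted p = 0.000139).

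Of 7 tested genes of arginine and the urea cycle, 3 were lower, none was higher and 4 were not called. Only 2 of the lower genes had some tretinoin array above 20, since SLC25A15 exceeded 20 on DMSO arrays only. SLC25A15, the mitochondrial ornithine carrier, was at least 3.75-fold lower, with every tretinoin array at the floor against 75.0 ± 14.2 in DMSO (SD, n = 3 arrays), which is a bound with no test. PRMT1, which methylates arginine residues of proteins, fell 2.57-fold, with 253 ± 27.4 in tretinoin and 649 ± 21.5 in DMSO (limma, adjusted p = 0.000367). The third, AGMAT, an agmatinase named because its call was unstable, was at least 2.15-fold lower (31.5 ± 17.6 in tretinoin, 67.8 ± 5.33 in DMSO; limma, adjusted p = 0.0324). Its log2 fold change was -1.24, also with the replicate block, where the call was lost (limma, adjusted p = 0.0524). It was lost too with a floor of 10, with no filter, and without any 1 DMSO array or tretinoin replicate 1 or 3 (log2 fold changes from -1.29 to -0.98; limma, adjusted p from 0.0524 to 0.162 over all 8 losses), and AGMAT was not tested where all 6 arrays had to exceed the floor. The urea cycle enzyme OTC and the arginase ARG1, both best known from liver, exceeded 20 on no array.

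Of 14 tested genes in the list of glutamine and glutamate, 6 were lower, 1 was higher and 7 were not called. The list also held NARS1 and RARS1, the tRNA synthetases of asparagine and arginine, and both were among those not called. Only 5 of the lower genes had some tretinoin array above 20, since BCAT1 exceeded 20 on DMSO arrays only. BCAT1, a branched-chain transaminase that forms glutamate, was at least 4.55-fold lower, with all tretinoin arrays at the floor against 90.9 ± 14.9 in DMSO (SD, n = 3 arrays), again a bound with no test. GMPS, a glutamine amidotransferase of purine synthesis, fell 3.19-fold, with 94.3 ± 19.9 in tretinoin and 301 ± 35.2 in DMSO (limma, adjusted p = 0.000743). GCLC, which joins glutamate to cysteine in glutathione synthesis, rose 2.19-fold, with 139 ± 1.55 in tretinoin and 63.5 ± 2.65 in DMSO (limma, adjusted p = 0.000442).

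Among 8 tested genes of proline and ornithine, 1 was lower, 1 was higher and 6 were not called. ODC1, which takes ornithine into polyamine synthesis, fell 9.86-fold, with 96.6 ± 6.03 in tretinoin and 953 ± 66.6 in DMSO (limma, adjusted p = 1.09e-05). OAT, which interconverts ornithine and the proline precursor pyrroline-5-carboxylate, rose 1.87-fold, with 179 ± 5.03 in tretinoin and 95.8 ± 14.3 in DMSO (limma, adjusted p = 0.00329). PYCR3, a paralog of PYCR1, exceeded 20 on no array. None of 5 genes of the malate-aspartate shuttle was called, with log2 fold changes ranging from -0.22 to 0.42, beside the lower signal of the shuttle transaminase GOT2.

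Of 10 tested regulators and markers of the amino acid response, 6 were lower, 1 was higher and 3 were not called. Those not called were DDIT3, ATF3 and NUPR1, with log2 fold changes of -0.28, -0.52 and 0.001. TRIB3, a pseudokinase that is itself a target of ATF4, fell 9.22-fold, with 62.3 ± 16.2 in tretinoin and 574 ± 73.6 in DMSO (limma, adjusted p = 0.000107). ATF5, a bZIP factor of the same family, fell 5.11-fold, with 103 ± 8.17 in tretinoin and 525 ± 40.6 in DMSO (limma, adjusted p = 4.98e-05). ATF4, named here after its values were seen because it is known to act at the ASNS element printed above, fell 2.46-fold, with 863 ± 207 in tretinoin and 2122 ± 60.2 in DMSO (limma, adjusted p = 0.00182). Whether ATF4 has a part in the ASNS signal of these cells was not tested. CEBPB, a C/EBP factor of myeloid maturation and stress, rose 3.73-fold, with 1963 ± 191 in tretinoin and 526 ± 5.42 in DMSO (limma, adjusted p = 9.67e-05). For SLC25A15, BCAT1 and CHAC1, leaving out any 1 DMSO array left fewer than 3 arrays above the floor, so none of them was then tested.

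**Figure D4:**
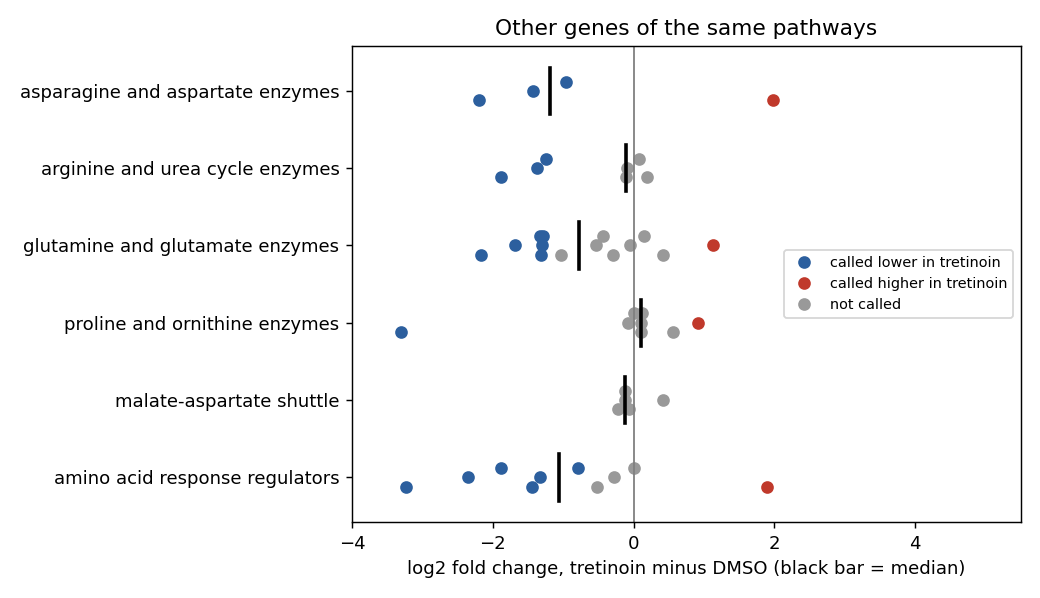
Log2 fold change (tretinoin minus DMSO) of the 48 tested genes in 6 lists of related function, 1 point a gene, red where called higher in tretinoin, blue where called lower and gray where not called, with black bars at the list medians. Points for the malate-aspartate shuttle stay close to 0, and ODC1 at -3.30 and TRIB3 at -3.23 lie farthest to the left.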

How the data were processed

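The authors deposited linear MAS5 signal intensities of 6 HG-U133A arrays, before scaling between arrays. MAS5 is named in the submitters' processing notes, and its version is not given in the sources used here. After the study's methods, arrays were scaled to equal overall signal and values below 20 were set to 20. The mean signal of DMSO replicate 1 was chosen here as the reference, since the study names none. The log2 signals were modeled in limma 3.58.1 (R 4.3.3; lmFit, then eBayes) with a mean per group and no block, over probe sets above 20 on at least 3 arrays, with Benjamini-Hochberg adjustment over all of them. A call required an adjusted p under 0.05 and a 1.5-fold or larger fitted difference. Folds are ratios of group means, and lower bounds where an array of the lower group was at the floor. The fit was tested on simulated data.

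Probe sets were named through the platform annotation, updated by Entrez identifier: 19071 had 1 symbol, 1043 several and 2169 none. The members, gene lists and markers were chosen with earlier results of these data known. Genes named from a list by rule are its 2 largest called rises and falls, and the 3 nearest to ASS1 by the measure given. Named outside this rule were ATF4, AGMAT, CHAC1, NARS1, RARS1, DDIT3, ATF3 and NUPR1. OTC, ARG1 and PYCR3 were named as examples of genes above 20 on no array. Alternatives were no, median, trimmed mean and quantile scaling, floors of 10 and 40, an offset of 16, other filters, moderated variances with trend, a replicate block, other fold minimums and each array left out. Detection calls were not used here. Python 3.11.15, numpy 2.4.6 and matplotlib 3.10.9 were used for sequences and figures.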

Additional observations from a re-analysis of the deposited data

How the results depend on the processing

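Over 19 alternative settings the number of member probe sets lower in tretinoin lay between 6 and 8, none was higher, and related genes numbered 14 to 21 lower and 3 to 5 higher. Only GLUL 217202_s_at and GOT2 lost a call in some setting, while ASNS was not tested where all 6 arrays had to exceed the floor. Across the array, 1142 probe sets were higher without scaling, which moved the median log2 fold change to -0.21, and a 2-fold minimum left 1012 higher and 860 lower. Of 168 member log2 fold changes under alternatives, 154 moved by less than the spread between arrays, and the sign turned in 1, that of GOT1 without DMSO replicate 3 (-0.31). No pairing by replicate number was evident: deviations of same-numbered arrays correlated at -0.03, -0.01 and 0.07, and those of different-numbered arrays at -0.06 to 0.07. Not every array correlated best with its own number. So few arrays cannot settle whether the numbers pair the samples. With the replicate block 8 member probe sets, 18 related genes and 1758 of all probe sets were lower, and AGMAT lost its call. Signals near the floor of 20, such as ASNS in tretinoin, set only a bound.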
